A study of Homo sapiens with 6 samples.

Results

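The genes described here are 9 that activate fatty acids, place them in phospholipids or triacylglycerol, coat lipid droplets or release fatty acids from them. They are ACSL1, ACSL3, ACSL4, ACSL5, LPCAT3, DGAT1, PLIN2, PLIN3 and PNPLA2. They were chosen by gene name, and all 9 were found among the 58735 genes of the expression table. RNA sequencing of 6 libraries was used, from MDA-MB-231, an established line of breast adenocarcinoma with mesenchymal features. Of these, 3 libraries came from cells given 0 Gy and 3 from cells given 10 Gy from a caesium-137 source, with RNA collected at 24 h. The labels give the genotype of all 6 as WT and their names as SCR, and the study uses shSCR for a line that carries a non-targeting short hairpin RNA. All of the libraries therefore come from 1 cell line, and nothing says that the 3 libraries of a dose came from separate cultures, so p-values measure the spread between these libraries only, which may be technical. The comparison asks how 10 Gy changed the RNA levels of these genes.

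Long-chain acyl-CoA synthetases, the ACSL family, attach coenzyme A to free fatty acids, and the activated acyl chains are then built into phospholipids, stored as triacylglycerol or oxidised. ACSL4 prefers polyunsaturated fatty acids such as arachidonic acid, which LPCAT3 can place in phospholipids, and membranes rich in such chains are prone to the lipid peroxidation of ferroptosis. Triacylglycerol made by DGAT1 is kept in droplets coated by perilipins, and adipose triglyceride lipase, the product of PNPLA2, starts its breakdown.

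Upstream sequence is shown for the lipase PNPLA2 and the droplet coat genes PLIN3 and PLIN2, 1 with the largest rise, 1 with a small rise and 1 with the largest fall. The sequences are from RefSeq on GRCh38.p14 and were searched on both strands in the 250 bases before each RefSeq start, in 13 windows of 8 of the 9 genes. DGAT1 was left out of these windows, and ACSL1 has more of them than any other gene. The capitals mark the match to TGANNNNGC, the core bound by CNC and small MAF factors, in PNPLA2 (chr11:818664-818901, plus strand) and PLIN3 (chr19:4867769-4867917, minus strand). In PLIN2 (chr9:19127544-19127573, minus strand) they mark CACGTG, the E-box. The PNPLA2 and PLIN3 stretches lie outside the annotated exons of their gene, and the PLIN2 stretch lies in an exon annotated as UTR of 1 PLIN2 transcript.
PNPLA2: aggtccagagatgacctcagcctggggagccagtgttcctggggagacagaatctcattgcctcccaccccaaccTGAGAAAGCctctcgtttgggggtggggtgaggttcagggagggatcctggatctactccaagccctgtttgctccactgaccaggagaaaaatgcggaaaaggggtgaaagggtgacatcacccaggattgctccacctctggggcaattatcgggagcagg
PLIN3: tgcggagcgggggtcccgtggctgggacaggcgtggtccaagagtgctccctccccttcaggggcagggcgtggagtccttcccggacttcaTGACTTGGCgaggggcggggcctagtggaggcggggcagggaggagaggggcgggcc
PLIN2: gctgccgcgggtCACGTGctgcggaggctt
The PNPLA2 match lies 175 to 167 bases before the RefSeq start, the PLIN3 match 158 to 150 and the PLIN2 match 69 to 64. Of all 35116 RefSeq promoter windows of the same length, 35.2% held TGANNNNGC, 6.34% held CACGTG and 4.20% held TGACTCA, the AP-1 site. Of the 13 windows, 7 held the first motif, in ACSL1 (more than 1 window), ACSL5, LPCAT3, PLIN3 and PNPLA2, and 1 each held the other motifs, CACGTG in PLIN2 and TGACTCA in ACSL1. TGACTCA followed by GC would match both it and the first motif. These are letter matches, and binding was not measured here. The study reports binding of the small MAF factor MAFF at the PLIN3 start by chromatin immunoprecipitation, and lower PLIN3 protein upon MAFF knockdown. Whether that binding lies at the match shown was not tested.

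Values were deposited as FPKM, fragments scaled for gene length and library depth. The length of each of the 9 genes was that of all its annotated exons together, whichever transcript was expressed. Levels set side by side between genes, and their order, depend on that length. Reads recovered from the values numbered 15643641 to 28861781 per library. On the log2 scale, pairs within a dose correlated at no less than 0.992 and pairs between doses at no more than 0.989. Of 8 mesenchymal markers of this line 7 were tested, and by the limma test described next 5 fell and 1 rose, where 23.7% and 11.9% of all genes tested did, with a summed level of 911 to 926 FPKM at 0 Gy and 742 to 761 FPKM at 10 Gy. On TPM, the same values rescaled to an equal sum per library, 4 of these markers fell and 2 rose. Of all 12128 genes tested, 1066 fell and 3113 rose on TPM. The 8 luminal and epithelial markers summed to 198 to 224 FPKM at 0 Gy and 209 to 215 FPKM at 10 Gy, mostly from KRT18 at a mean of 109 and 107 FPKM and KRT8 at 94.97 and 101.5 FPKM. GATA3 and EPCAM also passed the filter, while ESR1, PGR, FOXA1 and CDH1 were below it. Summed adipocyte markers, the other cells known for droplets, were 1.298 to 1.72 FPKM at 0 Gy and 1.79 to 1.89 FPKM at 10 Gy, with ADIPOQ at 0 in every library. Of 5 DNA damage response genes 4 were tested and 1 was called, CDKN1A, which was lower (log2 change -0.30, limma adjusted p = 0.0102). On TPM that call was lost (adjusted p = 0.0529) and GDF15 was called higher (adjusted p = 0.0244). Of 6 mitotic genes 5 were called higher, beside the same 11.9%, with a summed level of 491 to 499 FPKM at 0 Gy and 613 to 621 FPKM at 10 Gy, and the part of these shifts in the changes of the 9 genes was not tested. In such bulk RNA, fewer cells of a kind and less RNA per cell cannot be told apart.

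After 10 Gy, PNPLA2 rose the most of the 9 genes and PLIN2 fell the most, while ACSL3 and PLIN3 rose and ACSL5 fell by smaller amounts. Changes were tested with limma on log2(FPKM + 1). The test covered 12128 genes whose mean reached 1 FPKM, and a gene was called at a Benjamini-Hochberg adjusted p under 0.05. All 9 genes passed that filter. Of these, 5 were called, 3 higher and 2 lower, which is 55.6% beside 35.6% of all genes tested. Genes called higher were 11.9% and genes called lower 23.7% of all genes tested. At a change of at least 1.3-fold on the log2(FPKM + 1) scale 1 of the 9 was called, PNPLA2, beside 5.77% of all genes tested. The 2 doses did not overlap for 7 of the 9 genes, 4 higher and 3 lower after 10 Gy, beside 51.9% of all genes tested. The median log2 change was 0.01 over the 9 genes and -0.04 over all genes tested. Unless another setting is named, every log2 change is on the log2(FPKM + 1) scale, on which genes with low FPKM appear to change less than they do. Changes on TPM are on the log2(TPM + 1) scale.

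**Figure D1:**
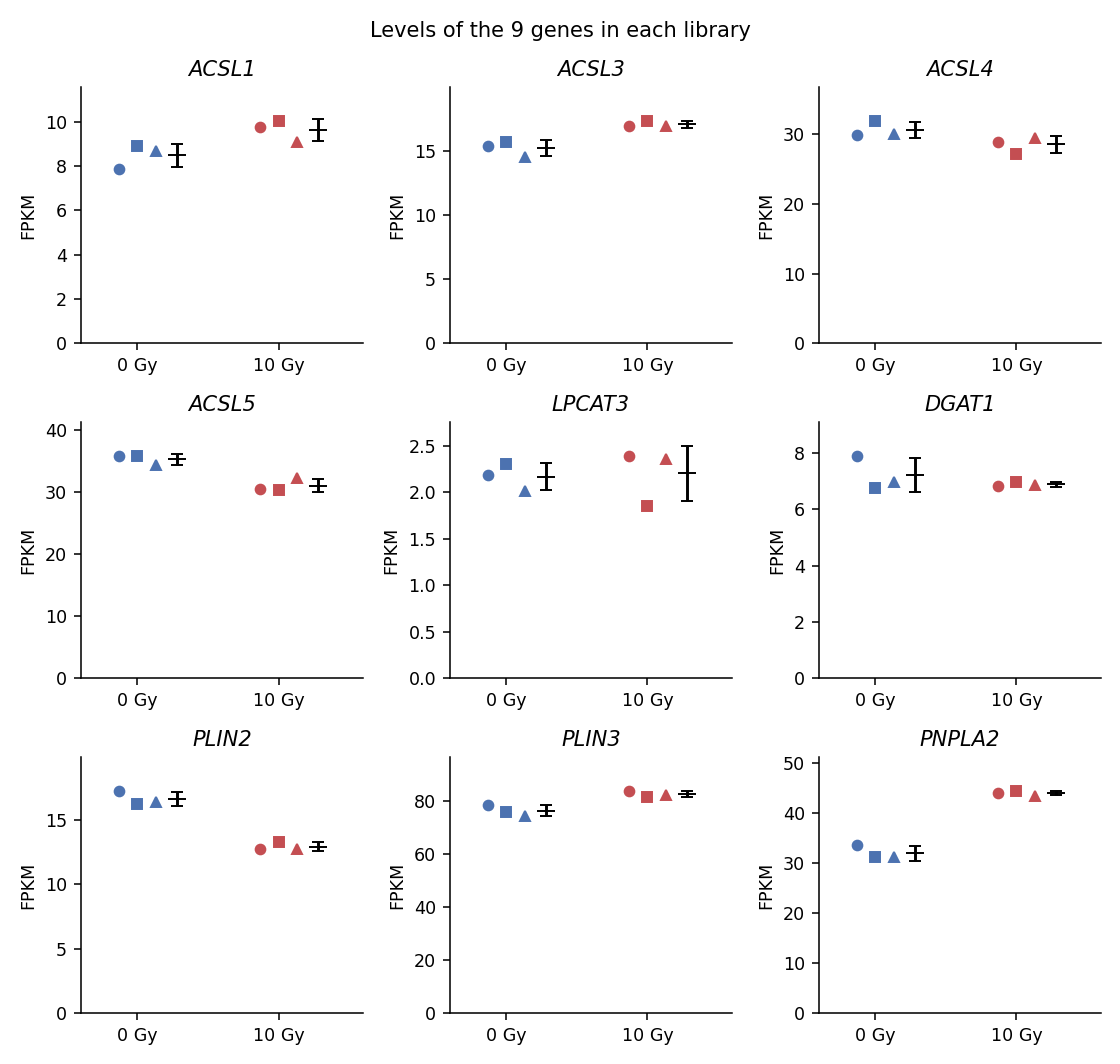
FPKM of each of the 9 genes in the 6 libraries, with 0 Gy in blue and 10 Gy in red, circles, squares and triangles for replicates 1, 2 and 3, and black bars for the mean and SD of 3 libraries. PNPLA2 lies between 31.1 and 33.6 FPKM at 0 Gy and between 43.5 and 44.4 FPKM at 10 Gy, while the doses overlap for LPCAT3 and DGAT1.

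The scale of the values matters for the small changes. FPKM summed to a mean of 272981 per library at 0 Gy and 249745 at 10 Gy, and rescaling every library to the same sum, as TPM, moved the median log2 change of all genes from -0.04 to 0.08, a shift of 0.12. Of the genes called, 33.4% were higher on FPKM, 74.5% on TPM and 58.1% with FPKM recomputed on each library's own reads. TPM scales all values of a library by 1 factor, so a gene's distance from the median of all genes can hardly differ between the scales. The near equality for the 5 called genes follows from that and is no test of the scale. PNPLA2 stood 0.49 above the median on FPKM and 0.51 above it on TPM on the log2 scale, and PLIN2 stood at -0.30 and -0.31. ACSL3 stood 0.20 and 0.21 above the median and PLIN3 0.15 and 0.16 above it. ACSL5 stood at -0.14 and -0.13.

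**Figure D2:**
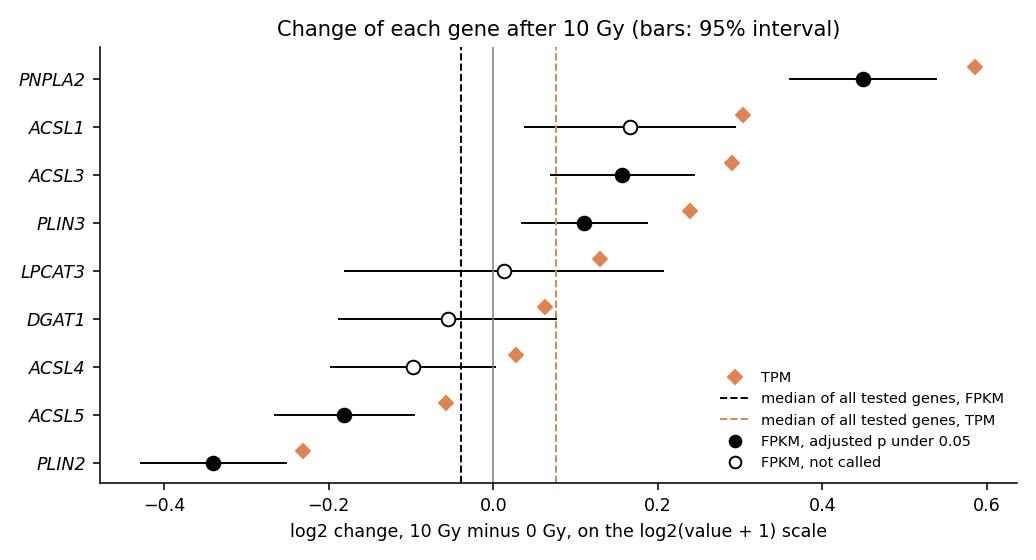
Log2 change of each gene, 10 Gy minus 0 Gy, with circles and 95% intervals for FPKM (filled where called) and diamonds for TPM, and dashed lines at the median of all genes tested on each scale. PNPLA2 lies highest and PLIN2 lowest on both scales, and ACSL4 and DGAT1 cross 0 between FPKM and TPM.

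At 0 Gy, PLIN3 had the highest level of the 9 genes, 76.5 ± 2.15 FPKM (SD, n = 3), followed by ACSL5, PNPLA2, ACSL4, PLIN2, ACSL3, ACSL1, DGAT1 and LPCAT3. PLIN3 stood 2.17 times above ACSL5. PNPLA2 and ACSL4 overlapped between their libraries, as did ACSL1 and DGAT1, and the other neighbours in this order did not. At 10 Gy PNPLA2 lay above ACSL5 in every library and ACSL3 above PLIN2, so both of these pairs had changed places.

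The ACSL family comes first in the pathway. ACSL5 (chr10:112374018-112428380, plus strand), an acyl-CoA synthetase of mitochondria and the endoplasmic reticulum, had the highest FPKM in the family at 0 Gy. Its length was 4236 bases, beside 6415 for ACSL4. In every library ACSL4 had more reads, 4089 beside 3226 in 0 Gy replicate 1, so their order rests on these lengths. ACSL5 measured 35.7, 35.8 and 34.3 FPKM in the 0 Gy replicates 1, 2 and 3 and 30.4, 30.3 and 32.2 FPKM in the 10 Gy replicates. All of the irradiated libraries lay below all of the others, and the third 10 Gy library lay closest to them. ACSL5 fell by 0.18 on the log2 scale (SE 0.036, limma adjusted p = 0.0087), and on TPM, where its change was -0.06, it was not called (adjusted p = 0.179). A neighbour on the opposite strand, ZDHHC6, shares 144 exonic bases with it, 3.40% of its length, and fell from 17.5 to 14.4 FPKM.

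ACSL4 (chrX:109624244-109733403, minus strand), the synthetase for polyunsaturated chains, measured 29.9, 32.0 and 30.0 FPKM at 0 Gy and 28.9, 27.2 and 29.5 FPKM at 10 Gy. The irradiated libraries were the lower ones without overlap, but the gap between the nearest libraries was small. The log2 change was -0.10 (95% interval -0.20 to 0.00, limma adjusted p = 0.111), not called, and its sign turned on TPM, to 0.03.

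ACSL3 (chr2:222860934-222944639, plus strand), a synthetase of the endoplasmic reticulum and droplets that favours monounsaturated chains, measured 15.4, 15.7 and 14.6 FPKM at 0 Gy and 16.9, 17.4 and 17.0 FPKM at 10 Gy. The 10 Gy libraries were close together and all higher. ACSL3 rose by 0.16 (SE 0.037, limma adjusted p = 0.0166), and its call was lost when the first or the second 10 Gy library was left out (adjusted p = 0.0516 and 0.0659). ACSL1 (chr4:184755595-184826818, minus strand), which feeds both storage and oxidation, measured 7.89, 8.90 and 8.68 FPKM at 0 Gy and 9.77, 10.1 and 9.11 FPKM at 10 Gy. The highest unirradiated library lay just below the lowest irradiated library. Its log2 change was 0.17 (95% interval 0.04 to 0.29), and its limma adjusted p of 0.0502 lay just outside the threshold. On TPM, with a change of 0.30, ACSL1 was called (adjusted p = 0.0163), as it was on FPKM without the second 0 Gy library (adjusted p = 0.0452) or the third 10 Gy library (adjusted p = 0.0474).

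Within a library, the ratio of any pair of genes does not depend on that library's scaling. ACSL4 over ACSL3 was 2.01 ± 0.0656 at 0 Gy and 1.67 ± 0.0908 at 10 Gy (SD, n = 3). It was lower in every irradiated library, where it was 1.71, 1.57 and 1.74, than in any other, where it was 1.94, 2.03 and 2.06. That follows from ACSL4 being lower and ACSL3 higher in every irradiated library. The summed level of the ACSL genes was 89.6 ± 2.53 FPKM at 0 Gy and 86.3 ± 1.37 FPKM at 10 Gy, with overlap. ACSL5 made up 39.4% ± 0.715 of that sum at 0 Gy and 35.9% ± 0.703 at 10 Gy. ACSL3 made up 17.0% ± 0.363 and 19.8% ± 0.569, and ACSL1 9.48% ± 0.539 and 11.2% ± 0.735. These 3 shares did not overlap between the doses. The share of ACSL4, 34.2% ± 0.505 and 33.1% ± 0.900, did overlap, and ACSL6 was near 0 in all libraries. These ratios and shares are descriptions without a test, and their size depends on the gene lengths used.

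**Figure D3:**
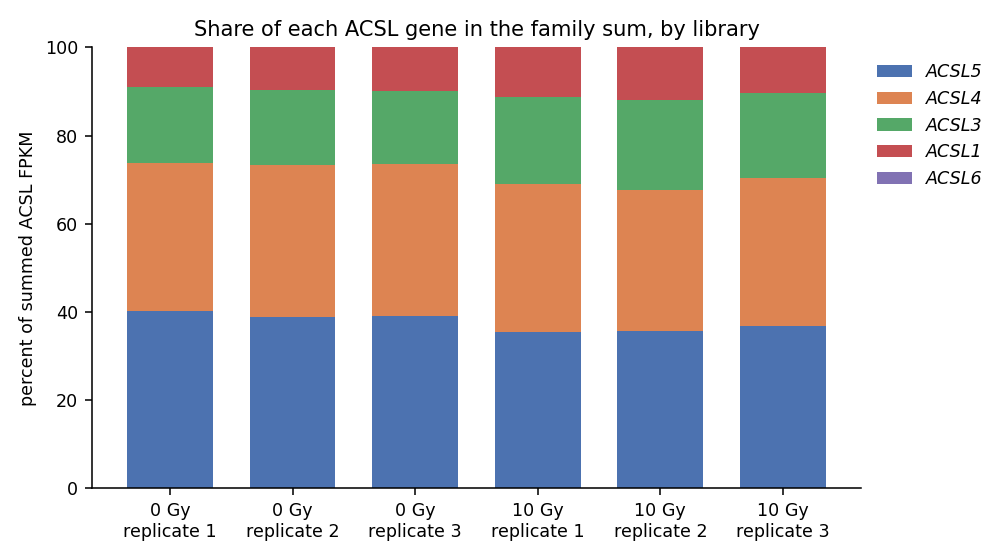
Percent of the summed ACSL FPKM held by each ACSL gene in each of the 6 libraries, stacked to 100%. The ACSL5 segment shrinks from a mean of 39.4% to 35.9% and the ACSL3 and ACSL1 segments widen, while ACSL6 is too low to be seen.

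LPCAT3 (chr12:6976186-7018510, minus strand), the acyltransferase that adds polyunsaturated chains to lysophospholipids, was the lowest of the 9 genes, with 160 to 338 reads per library. It measured 2.18, 2.30 and 2.01 FPKM at 0 Gy and 2.39, 1.86 and 2.36 FPKM at 10 Gy. The lowest and the highest value both came from irradiated libraries, so the doses overlapped. Its log2 change was 0.01 (95% interval -0.18 to 0.21, limma adjusted p = 0.917), and its sign turned without the third 0 Gy library and without the first or the third 10 Gy library. LPCAT3 shares 3100 exonic bases, 65.6% of its length, with EMG1 on the opposite strand, which fell from 11.6 to 8.76 FPKM. Whether the counting used strand is not given in the sources used here, so the level and change of LPCAT3 are uncertain. ACSL4 over LPCAT3 was 14.2 ± 0.646 and 13.1 ± 1.39, with overlap.

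DGAT1 (chr8:144314584-144326910, minus strand), which adds the last acyl chain of triacylglycerol, measured 7.90, 6.76 and 6.96 FPKM at 0 Gy and 6.82, 6.98 and 6.85 FPKM at 10 Gy. The first unirradiated library stood above the rest, and the other values overlapped. The log2 change was -0.06 (95% interval -0.19 to 0.08, limma adjusted p = 0.474), and its sign turned on TPM, to 0.06, and without the first 0 Gy library, to 0.0046. HSF1, on the opposite strand, shares 139 exonic bases with it, 3.36% of its length, and measured 25.6 FPKM at 0 Gy and 23.7 FPKM at 10 Gy. The strand setting of the counting is not given, and the part of HSF1 in the DGAT1 reads was not tested.

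PLIN2 (chr9:19108375-19149290, minus strand), a perilipin that stays on droplets and is degraded when free of them, measured 17.3, 16.2 and 16.4 FPKM at 0 Gy and 12.7, 13.3 and 12.7 FPKM at 10 Gy. Every irradiated library lay well below every other library. PLIN2 fell by 0.34 on the log2 scale (SE 0.037, limma adjusted p = 0.00116), to 0.777 times its mean at 0 Gy. It was called in 6 of 6 fits that left out 1 library and on TPM, where the change was -0.23.

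PLIN3 (chr19:4838341-4867768, minus strand), a perilipin that moves between the cytosol and new droplets, measured 78.8, 76.1 and 74.5 FPKM at 0 Gy and 84.0, 81.8 and 82.2 FPKM at 10 Gy. The irradiated libraries were all higher, by a gap smaller than the range at 0 Gy. PLIN3 rose by 0.11 (SE 0.032, limma adjusted p = 0.0343), and of the 6 fits that left out 1 library the call held in 1, the fit without the first 0 Gy library. In the other 5 fits the adjusted p ran from 0.0739 to 0.128. On TPM the rise was 0.24 (adjusted p = 0.0017). PLIN2 over PLIN3 was 0.217 ± 0.00402 at 0 Gy and 0.156 ± 0.00582 at 10 Gy, a ratio that was lower in every irradiated library. That follows from PLIN2 being lower and PLIN3 higher in each of them. The perilipins PLIN1, PLIN4 and PLIN5 were all below the filter.

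PNPLA2 (chr11:818902-825573, plus strand), the lipase that takes the first fatty acid from stored triacylglycerol, measured 33.6, 31.1 and 31.1 FPKM at 0 Gy and 44.1, 44.4 and 43.5 FPKM at 10 Gy. All of the irradiated libraries were far above the others. PNPLA2 rose by 0.45 (SE 0.038, 95% interval 0.36 to 0.54, limma adjusted p = 0.000613), to 1.38 times its mean at 0 Gy. It was called in 6 of 6 fits that left out 1 library, with changes from 0.43 to 0.49. DGAT1 over PNPLA2, the last step of storage over the first of release, was 0.225 ± 0.00889 at 0 Gy and 0.157 ± 0.00148 at 10 Gy, without overlap.

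Of 11 tested lipolysis genes beside PNPLA2, 1 rose, 2 fell and 8 were not called, so that 27.3% were called beside 35.6% of all genes tested, and on TPM 4 rose and 2 fell. The 2 that fell encode an inhibitor and an activator of the PNPLA2 lipase. G0S2, an inhibitor of the lipase, measured 152, 130 and 133 FPKM at 0 Gy and 88.1, 85.0 and 89.9 FPKM at 10 Gy. All irradiated libraries lay far below the rest, and G0S2 fell by 0.65 (SE 0.061, limma adjusted p = 0.000707). ABHD5, also called CGI-58, is the co-activator of the lipase, and it measured 9.62, 9.46 and 10.2 FPKM at 0 Gy and 6.59, 6.67 and 7.15 FPKM at 10 Gy. ABHD5 fell by 0.46 (SE 0.046, limma adjusted p = 0.000807), again without overlap. PNPLA3, a related droplet protein that binds ABHD5, rose from 1.44 ± 0.129 to 2.25 ± 0.105 FPKM (log2 change 0.41, limma adjusted p = 0.00378). HILPDA, another inhibitor of the lipase, was named after its values were seen, and it fell from 3.81 ± 0.0645 to 3.09 ± 0.0865 FPKM (log2 change -0.23, limma adjusted p = 0.0074), a call that was lost on TPM (adjusted p = 0.0712).

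The ratios of PNPLA2 to these partners were also chosen after their values were seen. PNPLA2 over G0S2 was 0.232 ± 0.00908 at 0 Gy and 0.502 ± 0.0196 at 10 Gy. PNPLA2 over ABHD5 was 3.28 ± 0.227 and 6.47 ± 0.344, and PNPLA2 over HILPDA 8.40 ± 0.523 and 14.3 ± 0.439. None of these ratios overlapped between the doses, which follows from PNPLA2 being higher and each partner lower in every irradiated library. The activity of the lipase and the amount of stored lipid were not measured in these libraries.

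**Figure D4:**
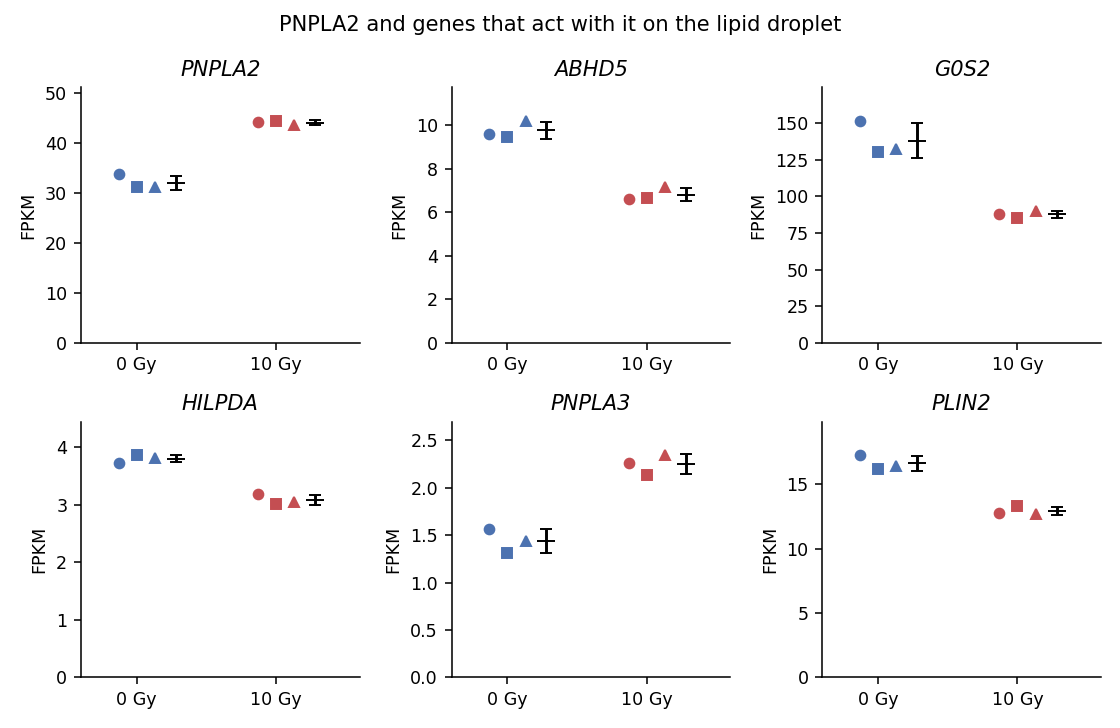
FPKM of PNPLA2, of ABHD5, G0S2, HILPDA and PNPLA3, and of PLIN2 in the 6 libraries, with symbols as in the plot of the 9 genes and black bars for the mean and SD of 3 libraries. PNPLA2 and PNPLA3 are higher at 10 Gy and the other 4 genes lower, with no overlap between the doses in any panel.

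The other genes of the pathway were taken from 7 lists that together hold 115 genes beside the 9, of which 82 passed the filter. Of these 82, 16 were called higher and 18 lower, or 41.5% beside 35.6% of all genes tested, and on TPM 31 were called higher and 12 lower. Their median log2 change was -0.01. The lists therefore moved in both directions, and the direction of their balance depended on the scale. That of all genes called did so too, with 33.4% higher on FPKM and 74.5% on TPM. On TPM 3113 of the 12128 genes tested were called higher and 1066 lower, and the TPM counts of each list stand beside those. By list, the share called on FPKM was 62.5% for the other acyl-CoA synthetases, 70% for regulators, 50% for droplet coat and biogenesis and 46.7% for triacylglycerol and sterol ester synthesis. It was below the 35.6% of all genes tested for binding, uptake and hydrolysis, at 30.8%, for lipolysis, at 27.3%, and for phospholipid remodelling, at 20%.

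Among the 8 tested acyl-CoA synthetases outside the ACSL members 4 rose and 1 fell, and on TPM 5 rose and 1 fell. ACSF2, a mitochondrial synthetase for medium-chain fatty acids, rose from 3.34 ± 0.255 to 5.78 ± 0.143 FPKM (log2 change 0.64, limma adjusted p = 0.000613). SLC27A4, a fatty acid transport protein with synthetase activity, fell from 29.3 ± 0.927 to 22.5 ± 0.764 FPKM (log2 change -0.37, limma adjusted p = 0.000964). At 0 Gy the levels of SLC27A4 and ACSL4 overlapped between libraries. Of the 13 tested genes for acyl-CoA and fatty acid binding, uptake and hydrolysis, 4 fell and 9 were not called, while on TPM 3 fell and 4 rose. FABP5, a cytosolic carrier of fatty acids, fell from 27.5 ± 1.42 to 21.2 ± 0.309 FPKM (log2 change -0.36, limma adjusted p = 0.00131), and DBI, the acyl-CoA binding protein, was not called (log2 change -0.12, limma adjusted p = 0.137, and 0.00 on TPM).

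Of 10 tested genes for droplet coat and biogenesis beside PLIN2 and PLIN3, 2 rose and 3 fell, and on TPM 3 rose and 2 fell. METTL7A, a methyltransferase found on droplets, rose from 1.56 ± 0.0749 to 2.34 ± 0.117 FPKM (log2 change 0.38, limma adjusted p = 0.00351). AUP1, a droplet protein of ubiquitin-dependent degradation, fell from 39.7 ± 0.393 to 33.5 ± 0.614 FPKM (log2 change -0.24, limma adjusted p = 0.00157). HSD17B11, a dehydrogenase of droplets, changed by 0.11 and missed the threshold (limma adjusted p = 0.0529), but on TPM it was called higher (log2 change 0.24, adjusted p = 0.002).

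Of 15 tested genes for triacylglycerol and sterol ester synthesis beside DGAT1, 3 rose and 4 fell, and on TPM 4 rose and 3 fell. GPAT3, which starts glycerolipid synthesis in the endoplasmic reticulum, fell from 22.3 ± 0.631 to 17.4 ± 0.645 FPKM (log2 change -0.34, limma adjusted p = 0.00123). AGPAT5, of the next acylation step, fell from 14.1 ± 0.305 to 10.6 ± 0.324 FPKM (log2 change -0.39, limma adjusted p = 0.0007). LPIN3, a phosphatidate phosphatase, rose from 3.80 ± 0.732 to 5.67 ± 0.370 FPKM (log2 change 0.48, limma adjusted p = 0.0147), and without the second 10 Gy library it was not called (adjusted p = 0.0558). SOAT1, which esterifies cholesterol, fell by 0.14 (limma adjusted p = 0.0167), and on TPM its change of -0.01 was not called. Without the second or the third 10 Gy library SOAT1 was not called either (adjusted p = 0.0689 and 0.053).

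Of 15 tested genes for phospholipid acyl chain remodelling beside LPCAT3, 2 rose and 1 fell, and on TPM 5 rose. LPCAT1, which makes saturated phosphatidylcholine, rose from 30.4 ± 0.300 to 39.2 ± 0.616 FPKM (log2 change 0.35, limma adjusted p = 0.000586). Its level at 0 Gy was far above that of LPCAT3, which is itself uncertain because of the overlap with EMG1. MBOAT7, which adds arachidonic acid to phosphatidylinositol, rose from 68.4 ± 0.284 to 73.3 ± 1.20 FPKM (log2 change 0.10, limma adjusted p = 0.0289). The MBOAT7 call held only without the first 0 Gy library among the fits that left out 1 library, and the adjusted p in the other 5 ran from 0.0537 to 0.122. PRDX6, a peroxiredoxin with phospholipase activity, was not called (log2 change -0.09, limma adjusted p = 0.179, and 0.04 on TPM).

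Among 10 tested regulators 4 rose and 3 fell, and on TPM 6 rose and 1 fell. EPAS1, the hypoxia factor HIF-2 alpha, rose from 6.41 ± 0.195 to 9.36 ± 0.291 FPKM (log2 change 0.48, limma adjusted p = 0.000593), while HIF1A was not called (log2 change 0.05, limma adjusted p = 0.26) but was called higher on TPM (log2 change 0.18, adjusted p = 0.00591). SREBF1, a driver of fatty acid synthesis genes, rose from 17.2 ± 0.587 to 20.8 ± 0.595 FPKM (log2 change 0.26, limma adjusted p = 0.00296). NR1H2 fell (log2 change -0.20, limma adjusted p = 0.00713), as did RXRB (log2 change -0.26, limma adjusted p = 0.00373). On TPM NR1H2 was not called (limma adjusted p = 0.152) and RXRB was (limma adjusted p = 0.0192). PPARG, a nuclear receptor known to act on PLIN2, was named after its values were seen and fell from 5.71 ± 0.0492 to 4.75 ± 0.279 FPKM (log2 change -0.22, limma adjusted p = 0.0107), a call lost on TPM (adjusted p = 0.14).

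**Figure D5:**
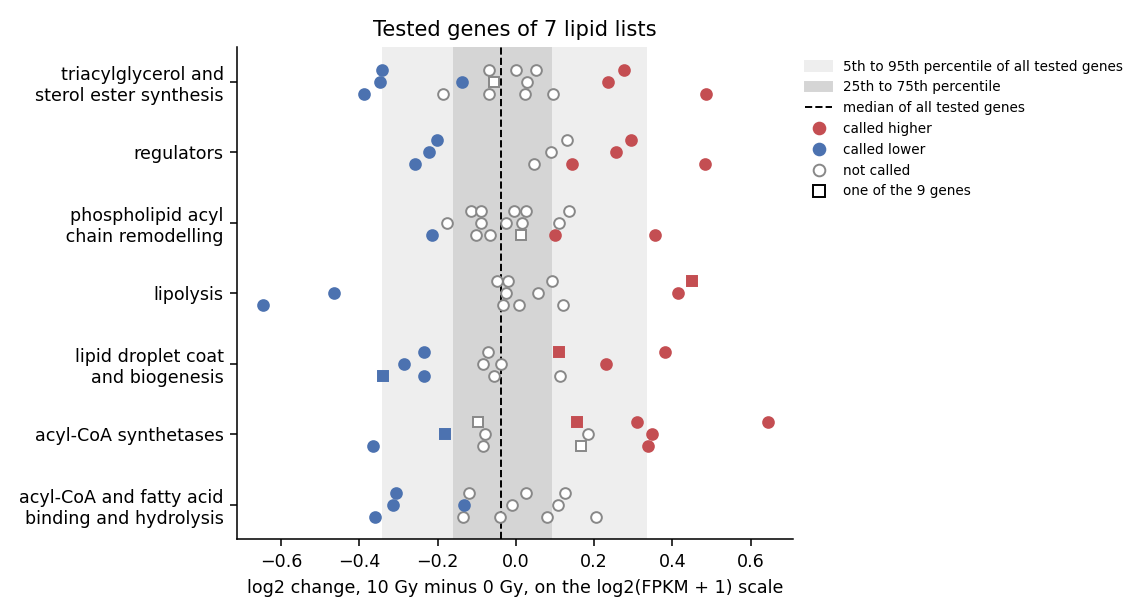
Log2 change, 10 Gy minus 0 Gy on FPKM, of every tested gene of the 7 lists (red called higher, blue called lower, open not called, squares for the 9 genes), with grey bands for all genes tested and a dashed line at their median of -0.04. Lipolysis holds the widest span, from G0S2 at -0.65 to PNPLA2 at 0.45, and on TPM the points lie further right.

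Over the 6 libraries, the protein-coding genes whose log2(FPKM + 1) was most like that of PNPLA2 were KIAA1522, REEP4 and DHRS3, with Pearson correlations of 0.9987, 0.9986 and 0.9985. Those most like PLIN2 were WTAP, PFDN6 and CPSF4, at 0.9987, 0.9981 and 0.9980. Those most like ACSL5 were CC2D1B, PGD and GCNT2, at 0.9985, 0.9983 and 0.9972. As many as 413 genes passed 0.95 with PNPLA2, 972 with PLIN2 and 603 with ACSL5. The points share 2 doses of 3 libraries each, so that any gene split by dose scores high.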

How the data were processed

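RNA sequencing of polyA libraries from MDA-MB-231 cells was analysed, 3 libraries at 0 Gy and 3 at 10 Gy, grouped by their labels. The authors deposited FPKM values per gene, and the submitters' processing notes name HISAT2 and GRCh38. The counting program and its strand setting are not given in the sources used here. Gene coordinates and lengths of the 9 genes were those of GENCODE 29. Multiplying FPKM by gene length and implied depth gave whole reads, within 0.05, for 100% of values, and implied depth was 0.973 to 1.04 times a library's own reads.

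The doses were compared by limma 3.58.1 under R 4.3.3, with eBayes and its trend, on log2(FPKM + 1) of genes whose mean reached 1 FPKM, with Benjamini-Hochberg adjustment over all 12128 genes. Intervals are 95%. The genes and lists were chosen with earlier results of these data known. Named beside the 9 were list genes called at 1.3-fold or more and up to 4 further genes a list with the highest mean level. Also named were the 3 genes most correlated with each of PNPLA2, PLIN2 and ACSL5. The 1.3-fold was taken on the log2(FPKM + 1) scale, which left out some called genes with larger FPKM ratios. These were SLC27A1, NR1H3, AACS and ACSS2, higher at ratios of 1.51, 1.41, 1.31 and 1.30, and GPAT2, lower at 0.754. Of the genes picked by level, FAF2, AGPAT1, AGPAT2, ABHD12, LIPA, PNPLA6, ACBD3 and ACOT7 are not described. None of them was called on FPKM, and some were called higher on TPM. HILPDA and PPARG lie outside this rule. Alternatives covered the pseudocount, filters, scaling, the moderation, the replicate block, protein-coding genes alone, limma-voom on recovered reads and each library left out. Python 3.11.15 and matplotlib 3.10.9 drew the figures.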

Additional observations from a re-analysis of the deposited data

How the results depend on the processing

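PNPLA2, PLIN2 and ACSL3 kept their direction and call under every setting that kept all libraries. Without 1 library the number of genes called ranged from 2660 to 3993 (852 to 1393 higher, 1808 to 2630 lower), of the 9 genes from 3 to 5, and of list genes called higher from 12 to 20. The lowest of these came without a 10 Gy library, replicate 1 or 2, and each of these left 3 of the 9 called. Log2 changes ranged over those fits from 0.12 to 0.20 for ACSL1, 0.13 to 0.18 for ACSL3, -0.0312 to 0.0931 for LPCAT3, 0.0924 to 0.1319 for PLIN3 and -0.0946 to 0.0046 for DGAT1. On TPM 3113 genes were higher and 1066 lower, 1221 at 1.3-fold, with 35 list genes higher and 13 lower, the 9 included. ACSL1 was then called at 0.30, ACSL5 was not at -0.0577, and ACSL4 (0.0271) and DGAT1 (0.0633) turned sign. With depth from own reads, chosen after the data were seen, 2294 genes were higher and 1651 lower, with 29 list genes higher, ACSL1 was called at 0.23, and DGAT1 turned to 0.0104. A filter at 5 FPKM gave 874 higher, 408 at 1.3-fold and 12 list genes higher, and called ACSL1 (0.17). LPCAT3 lies under that filter and has no value there. No filter gave 1815 lower and did not call PLIN3 (0.11). A pseudocount of 0.1 gave 1059 at 1.3-fold and limma-voom 1156, and limma-voom called ACSL1 (0.19), as did median-of-ratios scaling (0.17) and protein-coding genes alone (0.17). Without the eBayes trend PLIN3 was not called (0.11). Same-numbered libraries did not deviate together (correlations -0.0405, -0.0349 and -0.101), and with the replicate block 3503 genes were called and PLIN3 was not (0.11, adjusted p = 0.0654 by limma), with no other call among the 9 changed. Except where the construction shows it, the cause was not tested. With 160 to 338 reads per library, LPCAT3 had the fewest reads of the 9 genes.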
